A study of Mus musculus with 96 samples.

Results

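The Myc, Max and Mxd network is a family of transcription factors that compete for the same partner and the same DNA element. Its 9 members measured here, Myc, Mycn, Max, Mxd1, Mxd3, Mxd4, Mxi1, Mnt and Mlx, were taken from a table of 15895 genes by their symbols, each of which has 1 row. Their levels were followed by RNA sequencing in primary mouse embryonic fibroblasts (MEFs) of the CF-1 strain, prepared on embryonic day 13. All cells were first held for 36 h in 0.5% fetal calf serum, a starvation used to hold back division, and then received 20% serum. There were 2 time courses: Cycle 1 ran from -1 h to 38 h and gave 63 libraries, and Cycle 2 ran from -1 h to 27 h and gave 32. The -1 h and 0 h libraries of both Cycles are the 4 starved controls. Each hour was sampled once in a Cycle, so the replicates of an hour are the 2 Cycles, and nothing states that these came from separate embryos or that several cultures were pooled. The p-values of changes from starved therefore measure the spread between the 2 time courses and among the starved libraries. Those of differences between the Cycles measure the spread of hours within a Cycle. All fits treat successive hours as independent samples, so these p-values may be too small. The paper's supplement states that starvation need not synchronize all cells and that the 2 series may have started at differing points. The study aligned them by an offset found for each gene. Here libraries were paired by their labelled hour with no offset, so equal hours need not be equal stages. What part an offset has in the differences between the Cycles was not tested.

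Myc and Mycn bind DNA only as dimers with Max, and these dimers occupy the E-box CACGTG and activate genes for ribosome production, nucleotide synthesis and growth. Mxd1, Mxd3, Mxd4, Mxi1 and Mnt also dimerize with Max, bind the same E-box and bring Sin3 and histone deacetylases to repress it. Mlx is a Max-like factor that pairs with some of the repressors and with the glucose-sensing factors Mlxip (MondoA) and Mlxipl. Myc is a classic immediate early gene of fibroblasts given serum, and the repressors are known for their expression in resting or differentiating cells, with Mxd3 known instead from cells in S phase.

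Promoter sequences from RefSeq on GRCm38.p6, 250 bases before the start site to 50 after it, matched 8 of the 9 members. They are shown because the network binds the E-box: in 4 of these 8 members, Max, Mlx, Mnt and Mxd4, the promoter holds CACGTG, which occurs in 7.2% of all 32851 promoters of this length on either strand. The 6 bases CACGTG read the same on both strands. Capitals mark the E-box in the following 80-base stretches, written 5′ to 3′ on the strand of the gene.
Max, chr12:76962219-76962298, minus strand: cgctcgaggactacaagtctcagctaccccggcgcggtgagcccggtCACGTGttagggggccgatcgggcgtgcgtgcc
Mlx, chr11:101087213-101087292, plus strand: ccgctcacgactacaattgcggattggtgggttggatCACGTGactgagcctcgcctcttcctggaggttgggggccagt
Mnt, chr11:74830764-74830843, plus strand: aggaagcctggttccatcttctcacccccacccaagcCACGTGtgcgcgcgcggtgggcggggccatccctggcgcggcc
Mxd4, chr5:34187881-34187960, minus strand: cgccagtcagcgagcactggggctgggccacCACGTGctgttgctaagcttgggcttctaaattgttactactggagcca

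The first base of the E-box lies at -3 in Max, -40 in Mlx, -123 in Mnt and -219 in Mxd4, counted from the start site. Over both Cycles, Max and Mlx were called higher and Mnt and Mxd4 lower at 4 to 8 h after serum, so the 4 members with this motif did not share a direction in that window. The fall of Mxd4 was one of Cycle 1 (log2 change -1.63, almost 0 in Cycle 2). Its call was lost without the -1 h or the 0 h library of Cycle 1. A second search covered the E2F-type motifs TTCCCGC and TTGGCGC, which occur on either strand in 4.6% and 2.5% of all promoters. Among the members, TTCCCGC was found in Mxd3, in its reverse form GCGGGAA at -136, and TTGGCGC in Mycn, at -182 and -167. These stretches are shown because E2F sites are known from genes of S phase, and Mxd3 stood above its starved level at 15 to 20 h in Cycle 1. It did not rise together with the S phase genes described below. At 9 to 12 h of Cycle 1 their median log2 level was already 1.03 to 1.72 over starved, with Mxd3 at -1.03 to -0.724. Over the libraries Mxd3 followed G2/M genes more closely than S phase genes in both Cycles. In Cycle 2 Mxd3 stayed below its start at 15 to 20 h (log2 change -0.89). Whether these motifs have a part in either course was not tested.
Mxd3, chr13:55329825-55329904, minus strand: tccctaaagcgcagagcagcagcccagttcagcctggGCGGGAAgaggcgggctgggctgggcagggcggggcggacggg
Mycn, chr12:12941968-12942047, minus strand: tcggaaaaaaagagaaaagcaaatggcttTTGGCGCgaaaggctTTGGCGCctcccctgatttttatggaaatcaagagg

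On the build of the deposited values, NCBIM37, the members lie on 7 chromosomes. Myc spans chr15:61816946-61821929 on the plus strand and Mycn chr12:12942902-12948720 on the minus strand. Max spans chr12:78038256-78063235 (minus), Mlx chr11:100948591-100953521 (plus) and Mnt chr11:74644422-74659227 (plus). Mxd1 lies at chr6:86597038-86619153 (minus), Mxd3 at chr13:55426529-55431119 (minus), Mxd4 at chr5:34516536-34530369 (minus) and Mxi1 at chr19:53384996-53450300 (plus). The counts are of exon reads from both strands, so reads of overlapping transcripts on the opposite strand would be included.

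Values are a normalized signal, exon reads scaled by the authors to the same library total, and 1 read is worth 0.690 to 1.973 of these units. The libraries held 4352235 to 12551892 reads on the listed genes. Summed fibroblast markers such as Col1a2 and Vim ranged from 352797 to 524896 in starved libraries and from 157489 to 501421 after serum. Summed neural markers, led by Nes, went from 739 to 1130 in starved libraries to between 675 and 5023.7 after serum, muscle markers, led by Des, from 961 to 1951 to between 373 and 2542, and epithelial markers from 209 to 383 to between 162 and 1128. Haematopoietic markers were at 269 to 521 and then 150 to 740, endothelial markers at 217 to 292 and then 49.0 to 283, and the 1 erythroid marker in the table, Alas2, at most at 6.24. The part of these markers in the results was not tested. As these are bulk samples, fewer cells of a type and less RNA per cell cannot be told apart. Several libraries stand apart. The largest step from the preceding library, over 9112 genes, was that to the 24.5 h library of Cycle 1 (median size of the log2 difference 0.487), which is in none of the tests of shared hours but sets the ends of printed ranges of Mxd4 and Mxd1 at 21 to 27 h. In Cycle 2 at 27 h, 8 of the 9 members lay outside their own range of 21 to 26 h, and in Cycle 1 most members shifted level from 33 h or 34 h on. Results for 21 to 27 h are therefore given with and without the 27 h library of Cycle 2, and the last hours of Cycle 1 are described apart. The steps to the 25 h, 26 h and 27 h libraries of Cycle 1 were also large (0.348, 0.21 and 0.256). Those libraries stay in the tests of 21 to 27 h, and no fit left them out.

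Of the 9 members, 8 changed over the 29 hours shared by the Cycles (limma F test on log2(value + 1), adjusted p under 0.05), and 79.3% of all 15895 genes did. Mycn was the exception (adjusted p = 0.206). Against the starved libraries, 2 members were higher and 1 lower at 1 to 1.5 h, where 7.37% of all genes were called higher and 19.4% lower. At 2 to 3 h, 3 were higher and 2 lower, with 16.2% of all genes called higher and 42.7% lower. At 4 to 8 h the counts were 3 and 4, beside 22.3% and 41.2% of all genes. At 9 to 14 h they were 3 and 5 (24.9% and 36.3% of all genes), at 15 to 20 h 4 and 4 (26.4% and 36.9%), and at 21 to 27 h 3 and 4 (26.2% and 39.5%). The members were thus called about as often as genes in general or somewhat more often, and what set them apart from each other was the order and direction of their changes. The balance of these calls depends on the scaling: with TMM factors the median log2 change of all genes moved up by 0.05 to 0.28, and 4183 genes were called higher and 4604 lower at 2 to 3 h instead of 2582 and 6782. Of the members, 6 were then higher and 1 lower at 2 to 3 h, with Mxd1, Mnt and Mlx added and Mxd4 lost, and 3 higher and 0 lower at 1 to 1.5 h, with Mxd1 added and Max lost. Median ratio scaling gave these same member counts. At 1 to 1.5 h the split of all genes was 1796 to 1819 instead of 1171 to 3083, and at 4 to 8 h 4549 to 5320 instead of 3547 to 6542.

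**Figure D1:**
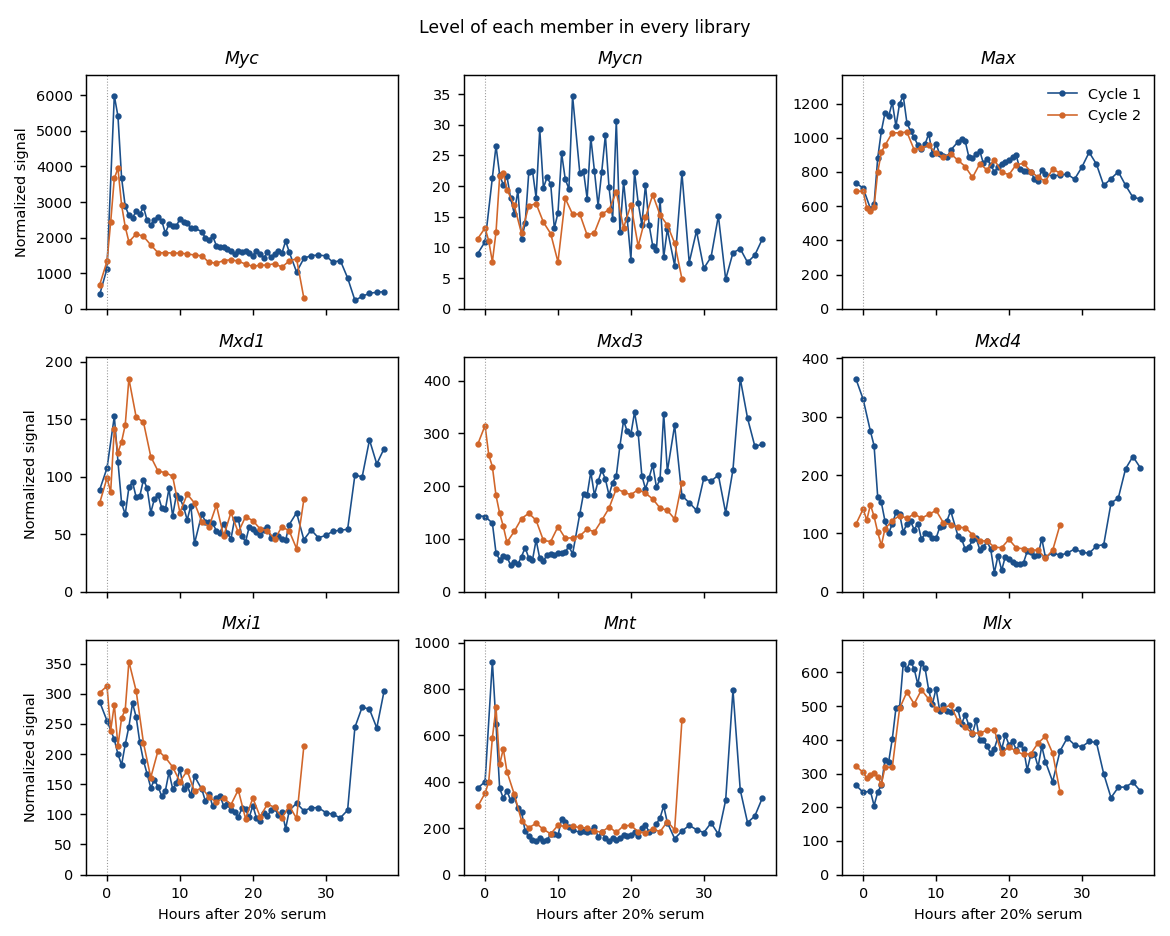
Normalized signal of each member (vertical axis, from 0) against hours after serum in all 95 libraries, with Cycle 1 in blue and Cycle 2 in orange. Myc and Mnt peak within 1.5 h, Max and Mlx between 4 and 8 h, Mxi1 and Mxd4 decline to about 20 h, and Mxd3 dips and recovers. The last libraries of each Cycle depart from the hours before them.

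Myc, the activator at the centre of the network, had the largest rise. Its starved values were 404 at -1 h and 1132 at 0 h in Cycle 1, and 678 and 1337 in Cycle 2. In Cycle 1 it reached 5982 at 1 h and 5411 at 1.5 h, and in Cycle 2 2432 at 0.5 h, 3663 at 1 h and 3946 at 1.5 h. Every library at these hours lay above all 4 starved libraries. The peak was 7.79 times the starved mean in Cycle 1 and 3.92 times in Cycle 2. At 1 to 1.5 h the log2 change over both Cycles was 2.53 (SE 0.269, adjusted p = 5e-09), a 5.79-fold rise.

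After the peak Myc fell back, and up to 26 h every library still stood above the starved mean of its Cycle. At 4 to 8 h its values ran from 2130 to 2866, with a median of 2501, over 9 libraries of Cycle 1 and from 1573 to 2102, with a median of 1795, over 5 of Cycle 2. At 15 to 20 h they ran from 1496 to 1776 (median 1616) over 11 libraries of Cycle 1 and from 1193 to 1379 (median 1311) over 6 of Cycle 2. The late Cycle 2 values overlapped the higher starved value of that Cycle. The log2 change was 1.41 at 4 to 8 h (SE 0.225, adjusted p = 2.16e-06), 0.86 at 15 to 20 h (SE 0.22, adjusted p = 0.00102) and 0.61 at 21 to 27 h (SE 0.216, adjusted p = 0.0133), or 0.75 at 21 to 27 h without the 27 h library of Cycle 2.

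How long Myc stayed raised depends on the baseline, since it was already higher at 0 h than at -1 h in both Cycles. That difference was 1.23 on the log2 scale (SE 0.32), with an adjusted p of 0.0818. In the same comparison, chosen after its values were seen, 0.459% of all genes were called higher and 0.0944% lower. Against 0 h alone, the log2 change of Myc was 1.92 at 1 to 1.5 h (adjusted p = 8.98e-07) but 0.25 at 15 to 20 h (adjusted p = 0.353). Leaving out the -1 h library of Cycle 1 alone also ended the call at 21 to 27 h (0.21, adjusted p = 0.358). The rise was larger in Cycle 1 than in Cycle 2 in each of the 6 windows, and the difference was not called (adjusted p = 0.399) unless the 27 h library of Cycle 2 was left out (0.0363) or the 0 h library of Cycle 1 (0.0444). The 3 genes whose pattern was most like Myc were Dusp6, a phosphatase that acts on ERK, with correlations of 0.93 over the 63 libraries of Cycle 1 and 0.93 over the 32 of Cycle 2, Csrnp1 (0.91 and 0.91) and the immediate early factor Egr2 (0.89 and 0.90). All were also higher at 0 h than at -1 h, Egr2 with 1183 against 131 in Cycle 1 and 728 against 83.0 in Cycle 2. These libraries entered the correlations that picked the genes, so this is not separate evidence. Such correlations, here and below, are over libraries of 1 time course that share its scaling and successive hours, among 9105 genes with a mean of at least 100, and are a description.

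Mycn, the Myc paralogue best known from neural tissue, was measured at very low levels, where few reads lie behind each value. Its 4 starved values were 9.02, 10.9, 11.4 and 13.2, and its highest value in any library was 34.7, at 12 h of Cycle 1. At 2 to 3 h its 6 values, 20.2 to 21.8 in Cycle 1 and 19.4 to 22.2 in Cycle 2, lay above all starved values, a log2 change of 0.88 (SE 0.274, adjusted p = 0.00656) that was not called against 0 h alone (0.76, adjusted p = 0.0699). The level then varied from hour to hour, between 11.4 and 29.2 at 4 to 8 h in Cycle 1. It was called higher again at 15 to 20 h (log2 change 0.60, SE 0.245, adjusted p = 0.033), a call that was lost when the -1 h or the 0 h library of Cycle 1 was left out (adjusted p = 0.16 and 0.101) or without the Cycle as a block (adjusted p = 0.0614). The genes most like it, Efnb2 (lower of the 2 correlations 0.58), Phlda1 (0.56) and Clcf1 (0.54), followed it much less closely than those found for the other members.

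Max, the shared partner of Myc and of the repressors, moved least in size and most evenly in the 2 Cycles. Starved values were 736 and 706 in Cycle 1 and 689 and 686 in Cycle 2. At 1 to 1.5 h all 4 values were lower, at 585 and 611 in Cycle 1 and 573 and 598 in Cycle 2, a log2 change of -0.25 (SE 0.0622, adjusted p = 0.00223) that was not called with TMM scaling, with median ratio scaling or with edgeR, where it shrank to as little as -0.07. It then rose to between 935 and 1245 at 4 to 8 h in Cycle 1 (median 1067) and between 930 and 1033 in Cycle 2 (median 1028). None of these 14 libraries overlapped the starved ones. The change was 0.56 on the log2 scale (SE 0.0521, adjusted p = 5.66e-11), a 1.47-fold rise, and it declined to 0.18 (SE 0.0499, adjusted p = 0.00174) at 21 to 27 h. The levels of the 2 Cycles at the 29 shared hours correlated at 0.92, the highest of the members. Atg16l1, an autophagy gene, had the most similar pattern (lower correlation 0.89), followed by Dok5 (0.89) and Ppif (0.88).

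Mnt, the most widely expressed of the Max-binding repressors, rose briefly with Myc and then fell below its starved level. Its starved values were 373 and 400 in Cycle 1 and 294 and 351 in Cycle 2. At 1 h and 1.5 h it stood at 918 and 650 in Cycle 1, and the 2 values of Cycle 2 were 589 and 721. Again no library overlapped the starved ones, and the log2 change was 1.01 (SE 0.21, adjusted p = 0.00033). At 4 to 8 h the median was 167 in Cycle 1 (range 144 to 336) and 221 in Cycle 2 (195 to 346), a log2 change of -0.70 (SE 0.176, adjusted p = 0.000833). The lowest change was -0.95 at 15 to 20 h (SE 0.172, adjusted p = 1.61e-05), and at 21 to 27 h it was -0.73, or -0.85 without the 27 h library of Cycle 2. From 5 h to 26 h every library of both Cycles was below the starved mean of its Cycle. The circadian repressor Cry2 was most like it (0.81), before Pnrc1 and Pde4b (0.78 each).

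Mxi1, a repressor that recruits Sin3, declined in both Cycles, with log2 changes at 21 to 27 h of -1.37 in Cycle 1 and -1.41 in Cycle 2. It started at 287 and 255 in Cycle 1 and at 302 and 313 in Cycle 2. At 9 to 14 h its values were 122 to 175 (median 143) in Cycle 1 and 128 to 179 (median 149) in Cycle 2, all below every starved value. At 15 to 20 h the medians were 110 and 124, a log2 change of -1.32 (SE 0.115, adjusted p = 1.36e-11), and at 21 to 27 h the change was -1.39 (SE 0.113, adjusted p = 2.08e-12), or -1.45 without the 27 h library of Cycle 2. A short return interrupted the decline at 3 to 3.5 h, to 354 in Cycle 2 at 3 h and 284 in Cycle 1 at 3.5 h. Ralgds, an activator of Ral GTPases, was most like Mxi1 (0.90), with Pdgfra, a receptor of platelet-derived growth factor (0.89), and Abca1, a cholesterol exporter (0.89).

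Mxd1, the founding Mxd repressor, is one of the 3 members whose response differed between the Cycles (limma F test of the differences, adjusted p = 0.0129; 35.5% of all genes were called in this test). Its starved values were alike, 88.7 and 108 in Cycle 1 and 77.3 and 98.9 in Cycle 2. At 2 to 3 h they parted: the 3 libraries of Cycle 1 held 67.2, 76.9 and 90.7, and those of Cycle 2 130, 145 and 185. The log2 change from starved was -0.33 in Cycle 1 and 0.79 in Cycle 2, a difference of -1.12 (SE 0.332, adjusted p = 0.0281). At 9 h Cycle 2 still held 100 and Cycle 1 65.9, and at 21 to 27 h the medians were 49.3 (range 44.8 to 68.7) and 53.1 (37.5 to 80.3). The change at 21 to 27 h was -0.79 (SE 0.187, adjusted p = 0.000409), and -0.83 without the 27 h library of Cycle 2. Like Mxi1, Mxd1 had Ralgds as its most similar gene (0.85), followed by Ip6k2 (0.82) and 2900097C17Rik (0.81). The 2 repressors themselves correlated at 0.85 over the libraries of Cycle 1 and at 0.84 over those of Cycle 2.

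Mxd4, a repressor of resting cells, fell in both Cycles but from unequal starting levels. In Cycle 1 it stood at 365 and 330 before serum, in Cycle 2 at 115 and 142. At 4 to 8 h the Cycles held similar levels, 89.9 to 136 (median 117) and 122 to 133 (median 126). Relative to its own start that was a log2 change of -1.63 in Cycle 1 and of almost 0 in Cycle 2, and the difference was -1.62 (SE 0.329, adjusted p = 0.000333). By 21 to 27 h the medians were 62.3 (47.6 to 91.0, or to 69.2 without the 24.5 h library) and 71.6 (57.6 to 115), with log2 changes of -2.53 in Cycle 1 and -0.76 in Cycle 2 (difference -1.77, SE 0.315, adjusted p = 2.73e-05). Over both Cycles the fall was -1.65 at 21 to 27 h (SE 0.254, adjusted p = 1.1e-06), a level 0.319 times the starved one. The F test of the difference gave an adjusted p of 1.9e-06. The calls at 2 to 3 h (-0.84, adjusted p = 0.0133) and 4 to 8 h (-0.82, adjusted p = 0.00801) were lost when the -1 h library of Cycle 1 (-0.56 and -0.54) or its 0 h library (-0.61 and -0.59) was left out, and that at 2 to 3 h also with TMM scaling (-0.56, adjusted p = 0.108). Wipi1, an autophagy gene, was most like Mxd4 (0.85), with Maged1 (0.83) and Ick (0.82) next.

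Mxd3, the repressor known from cycling cells, fell early and then recovered, further in Cycle 1 than in Cycle 2. Before serum it held 144 and 142 in Cycle 1 and 279 and 315 in Cycle 2. At 2 to 3 h the values were 60.8, 66.2 and 67.2 in Cycle 1 and 93.5, 124 and 149 in Cycle 2, all below the starved values of their Cycle, a log2 change of -1.22 (SE 0.33, adjusted p = 0.00195). The fall was -1.16 at 4 to 8 h (SE 0.302, adjusted p = 0.00123). At 15 to 20 h Cycle 1 stood at 183 to 324 (median 220), above its start, and Cycle 2 at 113 to 195 (median 171), below its own. The log2 changes of 0.70 and -0.89 differed by 1.60 (SE 0.374, adjusted p = 0.00104), and the mean over the Cycles, -0.09 (SE 0.295, adjusted p = 0.796), describes neither. The F test of the difference gave an adjusted p of 2.75e-06.

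The genes most like Mxd3 were the kinetochore gene Ndc80 (0.88), the spindle checkpoint kinase gene Bub1b (0.88) and the CDK inhibitor gene Cdkn2c (0.86). Over the libraries, Mxd3 correlated with the median of 18 G2/M genes at 0.94 in Cycle 1 and 0.79 in Cycle 2, and with that of 16 S phase genes at 0.74 and 0.29. The S phase genes were called higher in 16 of 16 at 15 to 20 h, with a median log2 change of 1.13 beside -0.13 for all genes, of which 26.4% were called higher. By library, the median of this list was 1.78 to 2.10 in Cycle 1 and 0.313 to 0.540 in Cycle 2. At 4 to 8 h 10 of the 18 G2/M genes were lower and none was higher, led by Cenpf (-1.99), Bub1 (-1.62) and Kif11 (-1.53). Their median was -1.07 beside -0.23 for all genes, of which 41.2% were called lower. At 21 to 27 h 10 were higher, with a median of 0.93 beside -0.16 for all genes, of which 26.2% were called higher. By library, the G2/M median was then 1.71 to 2.09 in Cycle 1 and -0.065 to 0.151 in Cycle 2. The rise over both Cycles was thus mainly one of Cycle 1. The unequal start of Mxd3 was shared by these genes: the median starved level of the G2/M list was 270 in Cycle 1 and 882 in Cycle 2, and that of the S phase list 288 and 563. What part these levels had in the differing course of Mxd3 was not tested.

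**Figure D2:**
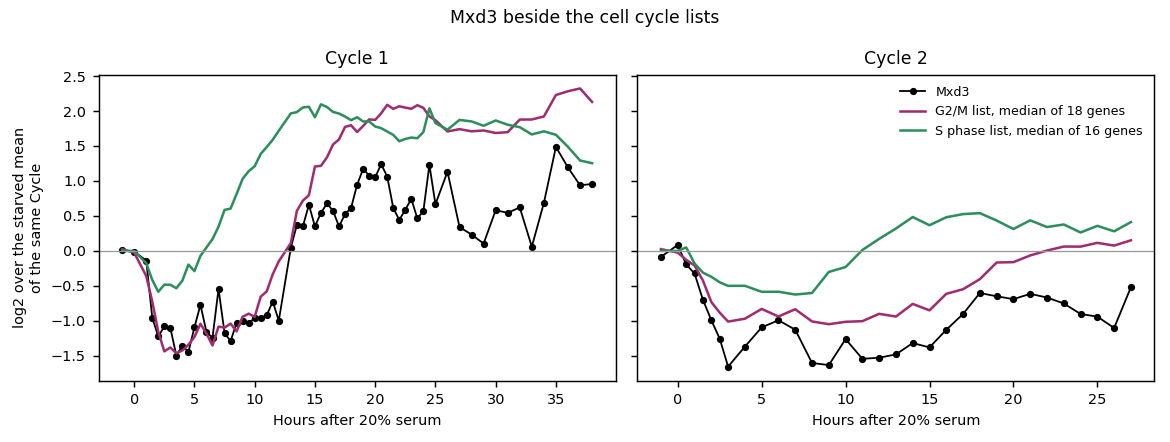
Log2 level of Mxd3 (black) over the starved mean of the same Cycle against hours after serum, beside the median of 18 G2/M genes (purple) and of 16 S phase genes (green). In Cycle 1 (left) Mxd3 falls and rises with the G2/M list, and in Cycle 2 (right) both stay mostly below their starved level.

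Mlx, the alternative partner of some repressors, rose later than Max and more strongly. It held 266 and 244 in the starved libraries of Cycle 1 and 321 and 304 in those of Cycle 2. At 2 to 3 h the values, 245 to 341 and 268 to 319, still overlapped these. At 4 to 8 h they had climbed to 403 to 633 (median 611) in Cycle 1 and to 318 to 548 (median 507) in Cycle 2, a log2 change of 0.84 (SE 0.0998, adjusted p = 8.69e-09), or 1.79-fold. All but the 4 h library of Cycle 2, at 318, lay above every starved value. The rise was 0.81 at 9 to 14 h (SE 0.0974, adjusted p = 1.39e-08) and declined to 0.29 at 21 to 27 h (SE 0.0957, adjusted p = 0.00768; 0.34 without the 27 h library of Cycle 2). That last call was lost when the 0 h library of Cycle 1 was left out (0.23, adjusted p = 0.0653). Lrrn2 and the mitochondrial glutamate carrier gene Slc25a22 (0.88 each) and the DNA polymerase gene Polm (0.87) were most like Mlx. Mlx ran opposite to Mnt, with correlations of -0.68 in Cycle 1 and -0.78 in Cycle 2.

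**Figure D3:**
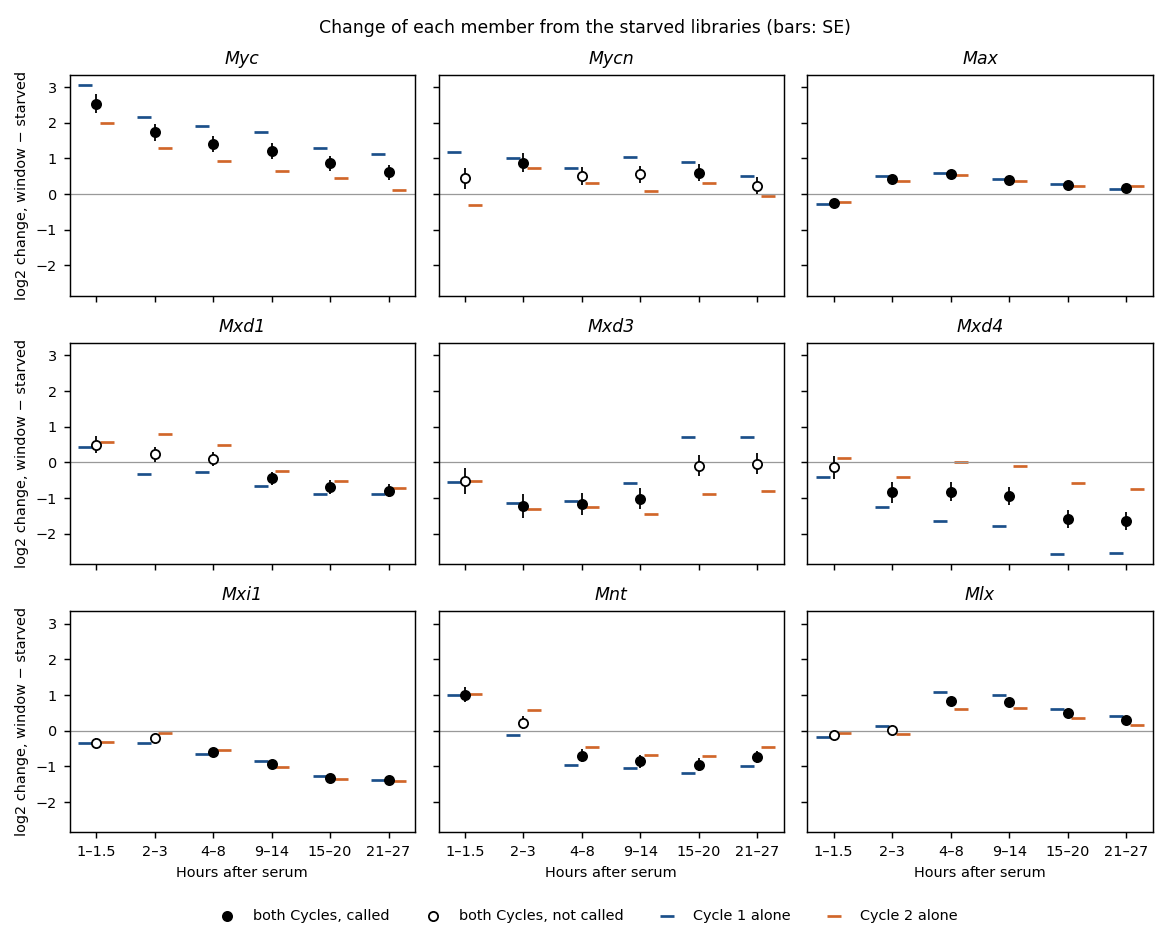
Log2 change from the starved libraries (vertical axis) in 6 windows of hours for each member. Circles are the change over both Cycles with its SE, filled where called and open where not, and dashes are each Cycle alone. The dashes lie far apart in Mxd4 and, late, in Mxd3, and close together in Max and Mxi1. They also lie apart in Myc in all 6 windows, in Mycn at 1 to 1.5 h and in Mxd1 at 2 to 3 h.

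To compare the members with each other, levels were divided by the length of the longest coding transcript in kilobases. Per kilobase, the starved medians over 4 libraries were 387 for Myc (range 173 to 572) and 348 for Max (342 to 367), whose ranges overlapped. Mxd3 (160, range 107 to 237) and Mlx (145, 124 to 164) followed and overlapped each other, and Mxd3 also overlapped Myc. The range of Mxd3 holds the unequal starts of the Cycles. Then came Mnt (78.8, 64.0 to 87.2), Mxd4 (60.9, 29.8 to 94.3) and Mxi1 (57.1, 49.5 to 60.7), with Mxd4 overlapping both others. Mxd1 (20.1, 16.6 to 23.1) and Mycn (4.19, 3.38 to 4.94) were lowest and overlapped no other member. At 1 to 1.5 h Myc alone stood at 2001 (1567 to 2559) and Max at 295 (286 to 305), without overlap.

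The ratio of Myc to the summed Mxd1, Mxd3, Mxd4, Mxi1 and Mnt messages, per kilobase, was 0.482 and 0.764 at -1 h in Cycles 1 and 2, and 1.37 and 1.32 at 0 h. At 1 h it was 5.75 and 3.64. In Cycle 1 it stayed high at 4 to 8 h (5 shared hours, 5.48 to 6.47) and 9 to 14 h (3.53 to 6.49), in Cycle 2 at 2.73 to 3.32 and 2.81 to 3.35. At 15 to 20 h the ranges met, at 2.06 to 3.15 in Cycle 1 and 2.08 to 2.91 in Cycle 2. Per kilobase, Mxd3 was the largest of the summed messages there, with a median of 140 beside 39.8 for Mnt, the next. In Cycle 1 the Mxd3 signal rose from a median of 74.1 at 9 to 14 h to 220 at 15 to 20 h. The medians of Mnt, Mxi1, Mxd4 and Mxd1 fell, as did that of Myc. The fall of the ratio in Cycle 1 thus includes the rise of Mxd3, and no ratio without Mxd3 was computed. The ratio is one of messages, not of proteins, and is given as a description.

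**Figure D4:**
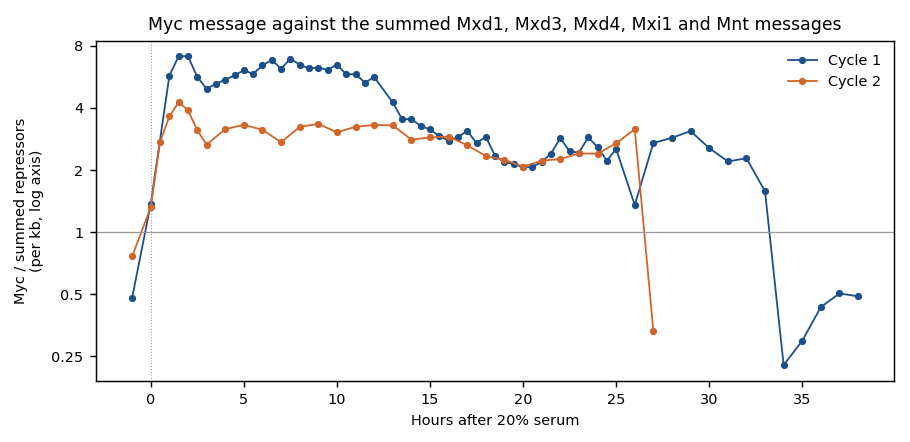
Ratio of the Myc message to the sum of the Mxd1, Mxd3, Mxd4, Mxi1 and Mnt messages, all per kilobase of transcript, on a log axis against hours after serum. The ratio is below 1 at -1 h, above 3.6 at 1 h in both Cycles, and below 1 again in the last libraries of each Cycle.

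Among the other genes of the E-box network, 7 of the 9 listed symbols were in the table. At 1 to 1.5 h 4 of them were lower and none higher: Tfap4 (-1.51), Mga (-0.85), Usf1 (-0.70) and Mycl1 (-0.65). In that window 19.4% of all genes were called lower and 7.37% higher. Mycl1, the third Myc paralogue, was later the 1 gene called higher, at 1.64 at 21 to 27 h (adjusted p = 2.71e-10), and Mga, a Max-binding repressor, the 1 called lower at -0.78. Of 16 Myc cofactors, 6 were higher and 3 lower at 4 to 8 h, with a median log2 change of 0.06 beside -0.23 for all genes. There 22.3% of all genes were called higher and 41.2% lower. Ruvbl2 (0.83), Wdr5 (0.78) and Ruvbl1 (0.77), which belong to chromatin complexes, led the rises, and the acetyltransferase genes Ep300 (-0.68) and Crebbp (-0.65) led the falls.

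Of 14 corepressors of Mxd and Mnt, 8 were lower and 3 higher at 4 to 8 h (median -0.30, beside -0.23 for all genes). There 41.2% of all genes were called lower and 22.3% higher. Sin3a, the scaffold that binds the Mxd proteins (-0.94), Ncor1 (-0.84) and Arid4b (-0.76) fell most, and Brms1 (0.74) and Sin3b (0.28) were among those that rose. Of 12 genes that act on the stability of the Myc protein, 3 were higher and 4 lower (median -0.05, all genes -0.23), shares near the 22.3% and 41.2% of all genes. The nucleolar deubiquitinase gene Usp36 (1.15) and Fbxl14 (0.23) were among those that rose. Gsk3b (-0.65), the kinase that marks Myc for degradation, Usp28 (-0.62), Huwe1 (-0.57) and Ppp2r5a (-0.44) fell.

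The 38 listed genes known to be activated by Myc rose in increasing number while Myc itself fell back. At 1 to 1.5 h 6 were higher, at 2 to 3 h 25, at 4 to 8 h 26, at 9 to 14 h 29, at 15 to 20 h 31 and at 21 to 27 h 33. The shares of all genes called higher in these windows were 7.37%, 16.2%, 22.3%, 24.9%, 26.4% and 26.2%. The median log2 change of this list was 0.10 at 1 to 1.5 h (all genes -0.15), 0.77 at 4 to 8 h (all genes -0.23) and 1.02 at 21 to 27 h (all genes -0.16). By library, the list median at 4 to 8 h was 1.12 to 1.31 in Cycle 1 but 0.217 to 0.395 in Cycle 2. Tfrc, the transferrin receptor (1.76), the RNA polymerase I subunit gene Polr1b (1.63) and Srm, spermidine synthase (1.45), led at 4 to 8 h, where Tert (-1.23), E2f2 (-0.93) and Paics (-0.58) were lower. Tert was the 1 gene still lower at 21 to 27 h (-0.61). In Cycle 1 Myc correlated with the median of this list at 0.09 over the libraries, and in Cycle 2 at -0.50.

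Of 15 genes known to be repressed by Myc, 10 were lower and 3 higher at 4 to 8 h (median -0.60, all genes -0.23). Among all genes, 41.2% were called lower and 22.3% higher there. Gas1, a growth arrest gene (-4.10), Gadd45a (-1.93) and Ddit3 (-1.70) fell most, and Thbs1 (1.17), Ndrg1 (1.08) and the CDK inhibitor gene Cdkn1a (0.76) rose. At 21 to 27 h 11 were lower, and Thbs1 (1.56) and Cdkn1a (0.65) were higher, beside 39.5% and 26.2% of all genes. Of the targets of Mlx with MondoA, 5 of 7 were measured. Txnip (-2.44) and Arrdc4 (-1.54), which restrain glucose uptake, and Acaca (-0.54) were lower at 4 to 8 h, while Klf10 (0.53) and Fasn (0.47) were higher. Txnip (-2.72, adjusted p = 1.4e-10) and Klf10 (1.99, adjusted p = 2.92e-10) were already called at 1 to 1.5 h, when Mlx was not (-0.12, SE 0.119). What part Mlx had in these changes was not tested.

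The end of Cycle 1 turned most of these changes around. Myc held 1593, 1033, 1417, 1498 and 1508 at 25 to 29 h, 869 at 33 h, and then 242, 349, 439, 465 and 482 at 34 to 38 h, below its starved mean of 768. In a comparison chosen after these values were seen, 34 to 38 h against 25 to 29 h, its log2 change was -1.86 (SE 0.203, adjusted p = 0.000365). Mxd4 went from 59.4 to 73.2 up to 152 to 232, a change of 1.53 (SE 0.13, adjusted p = 0.000108). Mxi1 went from 106 to 119 up to 243 to 305 (1.27, SE 0.0802, adjusted p = 2.43e-05), and Mxd1 from 45.2 to 68.7 up to 99.9 to 132 (1.05, SE 0.132, adjusted p = 0.000735). These 3 repressors thus rose together, each without overlap between the groups of hours. Mlx fell by 0.47 (SE 0.11, adjusted p = 0.0115), from 276 to 406 down to 228 to 274.

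Mnt reached 795 at 34 h and then held 364, 224, 252 and 328, and its change of 0.86 (SE 0.307, adjusted p = 0.0539) was not called. Neither were those of Mxd3 (0.56, adjusted p = 0.0704), Max (-0.13, adjusted p = 0.231) and Mycn (-0.29, adjusted p = 0.435). In this comparison 22.4% of all genes were called higher and 11.6% lower, so 3 higher and 2 lower of 9 members stand beside a large general shift. Its replicates are successive hours of 1 time course, and the p-values measure only the spread between them. Of the Myc-activated genes 22 of 38 were lower and none higher (median -0.48, all genes 0.09), and of the Myc-repressed genes 8 of 15 were higher and none lower (median 0.48). The genes most like Myc went the same way, Dusp6 from 403 to 567 down to 37.4 to 137 and Egr2 from 125 to 146 down to 9.79 to 17.3. These hours entered the correlations that picked those genes, so this is not separate evidence.

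In the last library of Cycle 2, at 27 h, Myc stood at 301 after 1169 to 1404 at 21 to 26 h. Mnt stood at 665 (3.52 times the median of the 6 hours before), Mxi1 at 213 (2.06 times), Mxd4 at 115 (1.61 times) and Mxd1 at 80.3 (1.52 times). Mlx held 246, under its range of 357 to 410, and Max 793, inside its range of 745 to 850. The members that were higher or lower there were so in the same direction as at 34 to 38 h of Cycle 1, but 7 h earlier than the first of those hours, and in 1 library, which allows no test. The ratio of Myc to the summed repressors was 0.332 in this library and 0.227 to 0.505 at 34 to 38 h of Cycle 1. Over 9112 genes with a mean of at least 100, the median size of the log2 difference between the 27 h and the 26 h library was 0.131, within the range of 0.074 to 0.229 for the steps between 4 h and 26 h of Cycle 2.

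**Figure D5:**
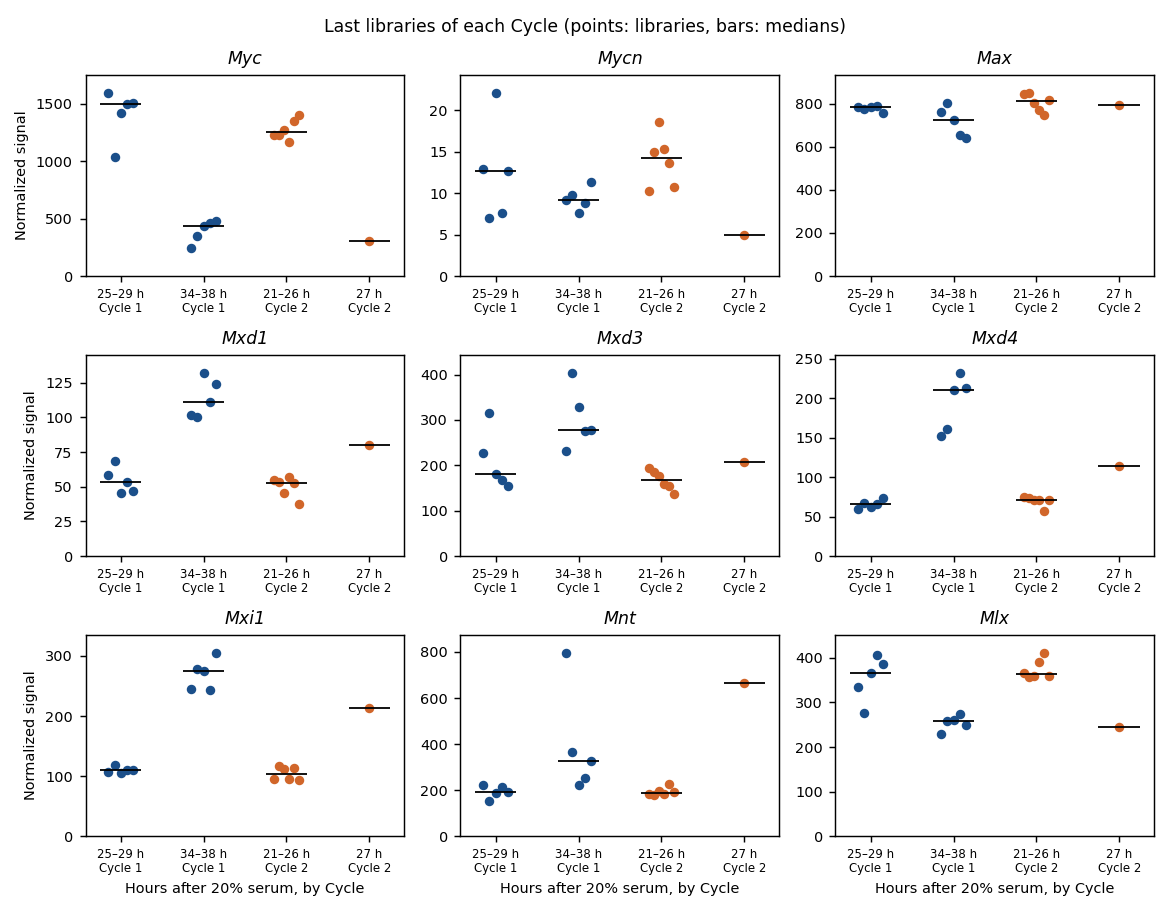
Normalized signal of each member (vertical axis, from 0) in the last libraries, with Cycle 1 in blue at 25 to 29 h and 34 to 38 h and Cycle 2 in orange at 21 to 26 h and 27 h. Points are libraries and bars medians. Myc falls and Mxd1, Mxd4 and Mxi1 rise without overlap in Cycle 1, and the single 27 h library of Cycle 2 lies on the same side.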

How the data were processed

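RNA was sequenced in 96 time point samples as 50-base single reads. According to the study's methods the authors aligned reads to mm9 with STAR and counted exon reads with HOMER. The deposited signal is scaled by the authors to the same total per library. Of the columns, 1 matched no label and was not used. Low values were whole multiples of 1 read (within 0.1) for 94.2% to 96.2%, and edgeR 4.0.16 on the recovered reads called 12439 genes over the shared hours. Depth sets the precision, and Mycn rests on few reads.

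Log2(value + 1) was fitted with limma 3.58.1 in R 4.3.3 to 62 libraries, the 4 starved ones and 29 hours in both Cycles, with the hour and the Cycle as terms, no filter, and Benjamini-Hochberg adjustment over 15895 genes. Windows are means of hours against starved. The difference between Cycles was tested with a term per window and Cycle, so hour to hour change is in its error. The Cycle pairs samples because each is 1 time course, and Cycle differences correlated between hours at a median of 0.471 (over 0.1 in 365 of 406 pairs, lowest -0.198). The named genes are all members, at most 3 called genes per list by size at 4 to 8 h, those that make up counts of 5 or fewer, and 3 like genes per member, and some listed genes are not reported here. Members and lists were chosen with earlier results of these data known. Positions and lengths are from GENCODE vM1. Fits were tested on simulated data. Alternatives changed the block, pseudocount, filter, scaling, moderation, baseline, libraries and tool.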

Additional observations from a re-analysis of the deposited data

Results flagged for a closer look

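The response to serum differed between the Cycles in 3 members by the limma test of the difference itself. The adjusted p of this test was 1.9e-06 for Mxd4, 2.75e-06 for Mxd3 and 0.0129 for Mxd1. The same test called 35.5% of all genes, so such a difference was common and not particular to the members. Mxd4 and Mxd3 also started from unequal starved levels, 348 against 129 and 143 against 297 on average.

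A single library lay far from the others of its window and Cycle, by Dixon's criterion, in 14 of 81 groups tested, where chance gives about 1 in 20. The 27 h library of Cycle 2 accounts for 5 of them, with Myc at 301 (next lowest 1169), Mlx at 246 (357), Mxd4 at 115 (next highest 75.0), Mxi1 at 213 (117) and Mnt at 665 (228). Several others are the first or last hour of a window in which the member was still moving: at 4 h of Cycle 2 Mnt was at 346 and Mlx at 318, at 14 h of Cycle 2 Myc was at 1303, and at 21 h of Cycle 1 Max was at 897. Mnt at 9 h of Cycle 2 was instead a dip to 175, after 195 at 8 h and before 212 at 10 h. The rest are Myc at 1033 at 26 h, Mycn at 34.7 at 12 h, Mxd3 at 97.9 at 7 h and Mnt at 227 at 11 h, all in Cycle 1. That Mnt value lay between those at 10.5 h (239) and 11.5 h (206), hours that were not in the tested group.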

How the results depend on the processing

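Counts of called members kept within 1.5 times under all alternatives but 2. With a log2 change of at least 1 also required, 2 members were called in each of the 5 windows from 2 to 3 h to 21 to 27 h. With edgeR on recovered reads 8 were called at 2 to 3 h, Mxd1, Mnt and Mlx being added to the 5. The count of members changed over the shared hours was 8 in every setting run. Without the Cycle as a block it was 8 too, and 7 members were called at 9 to 14 h and 7 at 15 to 20 h instead of 8, since Mxd1 and Mycn were lost there. Against 0 h alone, Myc at 21 to 27 h turned from 0.61 to -0.0015 on the log2 scale (adjusted p = 0.996), and over the alternatives its adjusted p ranged from 6.7e-05 to 0.996. Max at 1 to 1.5 h was not called with TMM, median ratio scaling or edgeR (adjusted p up to 0.549). Over all genes at 1 to 1.5 h, 1796 and 1903 were higher with TMM and median ratio scaling instead of 1171, and 1819 and 1720 lower instead of 3083, with 1960 lower by edgeR and 1868 against 0 h alone. At 2 to 3 h 4183, 4353 and, by edgeR, 4021 were higher instead of 2582, and 4436 lower with median ratio scaling instead of 6782. Without the 27 h library of Cycle 2 or the 0 h library of Cycle 1, Myc also differed between the Cycles (adjusted p = 0.0363 and 0.0444, against 0.399). The cause of these shifts was not tested. For either Cycle alone the changes were computed as values, and no test was run.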
